A study of Mus musculus with 107 samples.

Results

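The genes of glycolysis and lactate metabolism were described across the translating RNA of 24 neuronal and glial populations from mouse brain and spinal cord. The list held 36 genes, named for the enzymes of glycolysis, glucose and monocarboxylate transporters, the kinases that set glycolytic flux and pyruvate use, and the enzymes of glycogen. Members were matched by symbol in the array annotation, and each gene was represented by the probe set with the highest mean log2 value over all arrays among probe sets that named a single gene. In this way 34 of the 36 genes were measured, of 18194 genes on the array. Gpi1, glucose-6-phosphate isomerase, and Eno1, the broadly used enolase, had no probe set that named them alone and are not analysed here.

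Glycolysis splits glucose into pyruvate in the cytosol, and pyruvate is then either reduced to lactate or carried into mitochondria, where the pyruvate dehydrogenase complex commits it to oxidation. Several steps are run by isozymes from separate genes, which differ in regulation and in the cells that use them. In the brain, glycogen lies mainly in astrocytes, and a much debated model holds that astrocytes release lactate that neurons take up and oxidise.

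The populations were purified by TRAP (translating ribosome affinity purification), in which a tagged ribosomal protein, made from a bacterial artificial chromosome transgene in a chosen cell type, lets polysomes be pulled down from tissue lysate with an antibody. The 17 neuronal populations were cortical Cck+, Cort+ and Pnoc+ neurons (drivers cck, cort and pnoc), cortical layer 5a, layer 5b (glt25d2) and layer 6 neurons (ntsr1), striatal Drd1+ and Drd2+ medium spiny neurons (drd1, drd2), cholinergic neurons of striatum, basal forebrain and spinal cord and motor neurons of brainstem (all chat), and cerebellar Purkinje (pcp2), granule (neurod1), Golgi (grm2), unipolar brush (grp) and stellate and basket neurons (lypd6). The 7 glial populations were astrocytes of cortex and cerebellum (aldh1l1) and Bergmann glia (septin4), here called astroglia, and mature oligodendrocytes (cmtm5) and mixed oligodendroglia (olig2) of cortex and cerebellum, here called oligodendroglia. Each population was measured on 3 arrays, except cortical astrocytes with 4 and Purkinje neurons with 6, and 31 further arrays held the unbound RNA left after the pulldown from 6 tissues. Strain, age and sex of the mice were not given in the sources used here. Each population rests on the cells in which a transgene's driver is active, which need not be a single cell type, and glia were taken from cortex and cerebellum only. In bulk RNA of this kind, fewer cells of a type and less RNA per cell cannot be told apart.

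Values are log2 of the authors' intensities after each group was shifted so that the 18 biotinylated control probe sets on the array had equal means. Before the shift these control means ran from 10.13 to 12 over the 30 groups. A mean of 6 (intensity 64) in at least 1 group compared was the minimum for testing, and values under 6 lie near background. The probe sets of Aldoa, Pgk1 and Ugp2 hold probes that can also match other transcripts, by their array names, and that of Slc2a3 can be shared by related transcripts, so these values are less certain. A level can be set against the same gene in another population, never against another gene. Deposited values were often identical to the last digit between replicates: in groups of 3 arrays, the 3 values agreed exactly for 12.9% of the members and for 45.6% of all genes. The SD is 0 there, so tests on single arrays understate the spread, whereas the comparisons of cell classes used population means. Summed astroglial markers (log2 of the summed intensities, 10 of 10 genes measured) stood at 16.99 to 17.15 in astroglia, 13.8 to 14.9 in oligodendroglia and 9.92 to 16.0 in neurons, highest in unipolar brush neurons and then layer 5a neurons (15.7). Layer 5a RNA also carried the highest neuronal sums of oligodendrocyte (16.4), microglial (14.4) and vascular markers (12.3), and Bergmann glia had oligodendrocyte markers at 16.5. The part of these other cell types in the member values was not tested.

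Upstream windows of 6 members whose levels set the classes apart are shown to place what follows: Eno2, Pgam1 and Pgk1 were higher in neurons, and Pdk4, Hk2 and Pygm were higher in astroglia. Each is the 250 bases before the RefSeq transcription start in build GRCm38.p6, read on the gene's strand, and capitals mark ACGTG on either strand, the core shared by hypoxia response elements and by the CACGTG E-box.
Eno2, chr6:124769674-124769923, minus strand: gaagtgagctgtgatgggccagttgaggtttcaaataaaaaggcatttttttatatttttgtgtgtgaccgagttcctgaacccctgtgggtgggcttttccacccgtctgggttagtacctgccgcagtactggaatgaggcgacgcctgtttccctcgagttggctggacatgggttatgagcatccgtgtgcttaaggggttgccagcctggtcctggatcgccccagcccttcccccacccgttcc
Pgam1, chr19:41911621-41911870, plus strand: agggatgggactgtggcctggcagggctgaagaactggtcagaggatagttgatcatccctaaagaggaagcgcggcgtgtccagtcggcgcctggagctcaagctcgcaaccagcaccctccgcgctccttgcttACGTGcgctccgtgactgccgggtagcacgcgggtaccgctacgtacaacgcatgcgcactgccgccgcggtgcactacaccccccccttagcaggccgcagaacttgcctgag
Pgk1, chrX:106186850-106187099, plus strand: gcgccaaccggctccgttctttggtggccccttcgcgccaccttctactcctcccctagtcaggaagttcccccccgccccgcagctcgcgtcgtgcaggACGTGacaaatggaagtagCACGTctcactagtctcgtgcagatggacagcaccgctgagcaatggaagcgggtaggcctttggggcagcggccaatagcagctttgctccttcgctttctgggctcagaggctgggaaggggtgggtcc
Pdk4, chr6:5496279-5496528, minus strand: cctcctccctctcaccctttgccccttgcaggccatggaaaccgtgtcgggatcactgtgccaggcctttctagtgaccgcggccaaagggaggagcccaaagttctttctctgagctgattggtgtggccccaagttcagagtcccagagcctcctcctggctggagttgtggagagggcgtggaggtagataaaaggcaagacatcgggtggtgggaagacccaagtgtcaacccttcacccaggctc
Hk2, chr6:82774455-82774704, minus strand: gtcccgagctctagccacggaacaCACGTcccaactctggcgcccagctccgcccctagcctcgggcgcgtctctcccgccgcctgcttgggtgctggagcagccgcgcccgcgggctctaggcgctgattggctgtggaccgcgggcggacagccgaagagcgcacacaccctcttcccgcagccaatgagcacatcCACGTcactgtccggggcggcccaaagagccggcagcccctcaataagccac
Pygm, chr19:6384158-6384407, plus strand: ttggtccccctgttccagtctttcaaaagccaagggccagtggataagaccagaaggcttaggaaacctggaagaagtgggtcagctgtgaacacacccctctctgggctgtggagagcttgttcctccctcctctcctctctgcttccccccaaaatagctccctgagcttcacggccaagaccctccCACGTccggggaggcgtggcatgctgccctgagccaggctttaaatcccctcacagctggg
Pgk1 and Hk2 held 2 matches each, Pgam1 and Pygm held 1 each, and the windows of Eno2 and Pdk4 held none. Of the 36 listed members 34 had such a window, among them the unmeasured Gpi1 and Eno1, while Slc2a3 and Slc16a7 had none. Counting 1 window per gene, the first listed, 16 of these 34 held the pentamer, and of all 27025 genes with a window 16.6% did. Matching letters describe these windows only and show no bound site. The members higher in neurons and the members higher in astroglia both include windows with and without a match.

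Of the 34 members, 10 were higher in the 17 neuronal populations and 2 were lower (limma on population means, adjusted p under 0.05), and 22 did not pass. Over all 12392 genes tested, 12.4% were higher and 12% were lower in neurons, so the share of members that were higher (10 of 34) was above the background and the share that were lower (2 of 34) below it. The median member difference was 0.45 on the log2 scale, against 0.09 for all genes. The 10 higher members ran from glucose entry to pyruvate use: Slc2a3, Hk1, Pfkp, Aldoa, Gapdh, Pgk1, Pgam1, Eno2, Pkm and Pdhb. Of these, Hk1, Aldoa, Gapdh, Pgk1, Pkm and Pdhb did not pass against astroglia alone (limma, adjusted p of 0.103 to 0.526). The 2 lower members were Pdk4, which switches pyruvate dehydrogenase off, and Ugp2, which makes the glucose donor for glycogen. No member separated all 17 neuronal from all 7 glial populations, and 1.13% of all genes did. The scaling matters for the balance: without the control shift 6 members were higher and 4 lower, the share of all calls that were higher fell from 50.8% to 32.3%, and the median of all genes moved from 0.09 to -0.24.

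**Figure D1:**
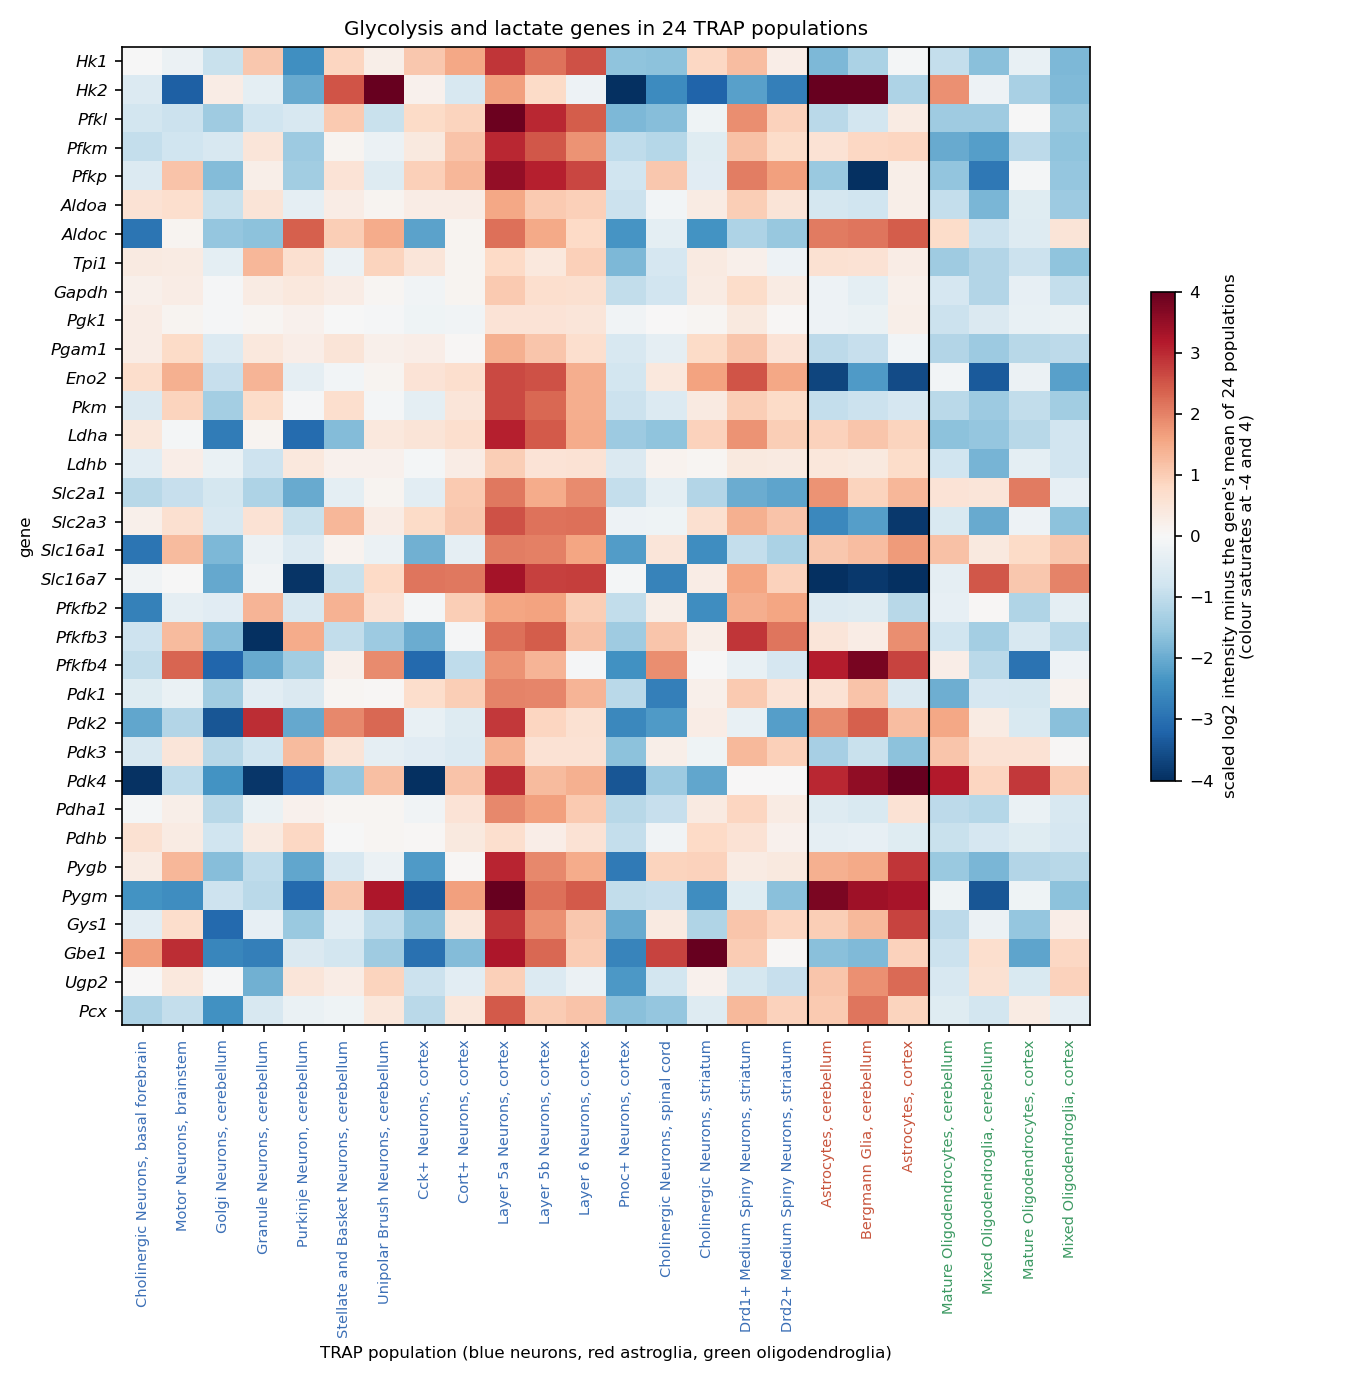
Scaled log2 intensity of the 34 members (rows) in 24 TRAP populations (columns: 17 neuronal, 3 astroglial, 4 oligodendroglial), as the difference from each gene's mean over the populations. Layer 5a neurons were the highest population for 22 of 34 members, and Slc2a3, Eno2 and Slc16a7 are low in all 3 astroglial columns.

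**Figure D2:**
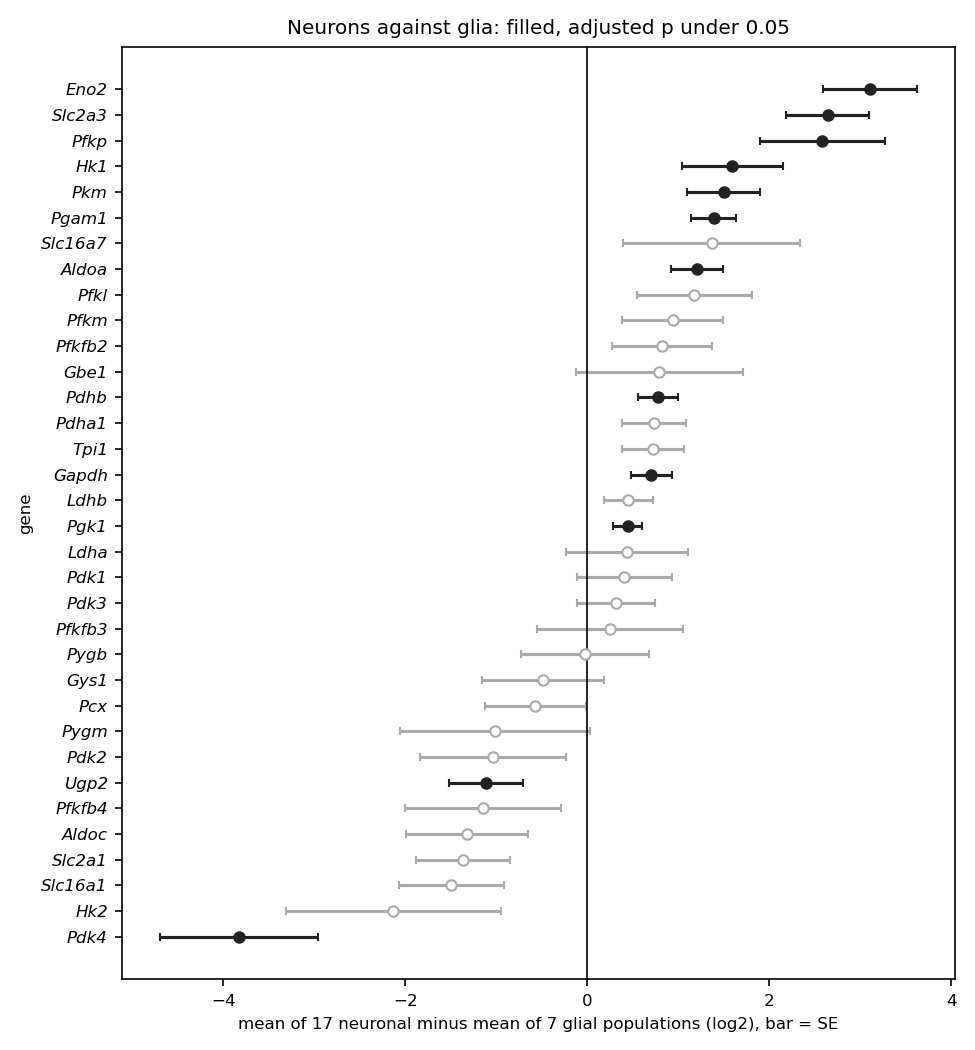
Difference of the mean of 17 neuronal and of 7 glial populations for each member (points, log2), with its standard error (bars) and with filled points for adjusted p under 0.05. Eno2 stands at 3.10 and Pdk4 at -3.83.

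Of the glucose transporters, Slc2a3 was higher in neurons than in glia. Slc2a3, the high-affinity glucose transporter GLUT3, ran from 9.99 to 13.45 in neurons (median 11.52). It stood at 7.03 in cortical astrocytes, 8.31 in cerebellar astrocytes and 8.69 in Bergmann glia, and at 8.88 and 9.24 in mixed oligodendroglia and 10.30 and 10.70 in mature oligodendrocytes of cerebellum and cortex. Every neuronal population lay above every astroglial population, and 14 of 17 lay above all glia. The mean was 11.66 ± 0.98 (SD, n = 17) in neurons and 9.02 ± 1.23 (n = 7) in glia, a 6.23-fold difference (2.64, SE 0.46, adjusted p = 0.000152). Against astroglia alone it was 12.6-fold (adjusted p = 6.16e-05).

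Slc2a1, the GLUT1 transporter best known from the blood-brain barrier and astrocytes, had a difference of the other sign. Its level ran from 8.68 to 12.89 in neurons (median 10.09) and from 10.46 to 12.86 in glia (median 11.69), and 12 of 17 neuronal populations lay below all glia. The difference of -1.37 missed the threshold (SE 0.51, adjusted p = 0.0517). Layer 5a neurons, at 12.89, were the highest of all populations for Slc2a1.

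Hexokinases trap glucose in the cell as glucose 6-phosphate. Hk1, the main brain form, had a neuronal mean of 11.96 ± 1.49 (SD, n = 17) and a glial mean of 10.36 ± 0.71 (n = 7), with a range of 9.05 (Purkinje) to 14.36 (layer 5a) in neurons and 9.68 to 11.40 in glia. The 3.01-fold difference passed (adjusted p = 0.0367), but 12 neuronal populations lay above all glia while Purkinje neurons lay below all of them. The call ended without any of 7 populations: layer 5b, layer 6 or Cort+ neurons, cerebellar astrocytes, Bergmann glia or either mixed oligodendroglia (differences of 1.46 to 1.57, adjusted p of 0.0505 to 0.0813).

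Hk2, the inducible hexokinase, stood at 13.19 ± 0.49 (SD, n = 3 arrays) in Bergmann glia and 12.43 ± 0.24 in cerebellar astrocytes, but at 4.97 ± 0.59 (n = 4) in cortical astrocytes. Among neurons it reached 11.93 in unipolar brush neurons and 8.73 in stellate and basket neurons, while 10 of 17 neuronal populations lay under 6. Unipolar brush neurons also had the highest summed astroglial markers among neurons, and the part of those cells in this value was not tested. With neuronal values under 6 set to 6, astroglia stood at least 11.1-fold above neurons (adjusted p = 0.0295 for the unfloored difference of -4.62), and the call ended without Bergmann glia (-3.12, adjusted p = 0.266) or without cerebellar astrocytes (-3.50, adjusted p = 0.227).

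Phosphofructokinase makes the committed step of glycolysis, and its subunits come from 3 genes. Pfkp, the platelet-type subunit, ran from 9.17 (Golgi) to 14.42 (layer 5a) in neurons, with a median of 11.84. It stood at 11.13 in cortical astrocytes, 9.43 in cerebellar astrocytes and 5.44 in Bergmann glia, and between 8.03 and 10.82 in the 4 oligodendroglial populations. The means of 11.66 ± 1.54 (n = 17) and 9.08 ± 1.91 (n = 7) differed by 2.58 (SE 0.68, adjusted p = 0.00696), and 11 of 17 neuronal populations lay above all glia. Against astroglia the difference of 2.99 (adjusted p = 0.0256) rested on Bergmann glia, since without them it was 1.38 (adjusted p = 0.406), and without cerebellar astrocytes it was 3.37 (adjusted p = 0.0595). Of the 3 Pfkp probe sets above the minimum, 2 had the same sign.

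Pfkm, the muscle-type subunit, was at 12.29 to 12.56 in astroglia and 9.51 to 10.65 in oligodendroglia, with neurons between 10.27 and 14.74. Neurons were higher than oligodendroglia by 1.99 (SE 0.60, adjusted p = 0.0307), and 15 of 17 neuronal populations lay above all oligodendroglia. The call ended without mature cerebellar oligodendrocytes (1.90, adjusted p = 0.0938), mixed cerebellar (1.83, 0.127) or mixed cortical oligodendroglia (2.03, 0.0823). Pfkl, the liver-type subunit, did not pass in any comparison of classes, and ran from 8.45 to 14.16 in neurons.

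The PFKFB enzymes make and break fructose 2,6-bisphosphate, the strongest activator of phosphofructokinase. Pfkfb4 stood at 9.18 in Bergmann glia, 8.51 in cerebellar astrocytes and 8.10 in cortical astrocytes, above all 17 neuronal populations (2.21 to 7.72, highest in motor neurons of brainstem, 12 of them under 6) and all 4 oligodendroglial ones (2.43 to 5.66). With values under 6 set to 6, astroglia were at least 4.70-fold above neurons and at least 6.05-fold above oligodendroglia. The tests used the unfloored differences (-3.55, SE 1.01, adjusted p = 0.0117 for neurons, and 4.20, adjusted p = 0.0409 for oligodendroglia). The former call ended without Bergmann glia (-3.26, adjusted p = 0.0768) or cerebellar astrocytes (-3.59, 0.0564), and the latter without any glial population other than mature cerebellar oligodendrocytes (3.54 to 4.46, adjusted p of 0.0531 to 0.147). Pfkfb2 (4.19 to 8.50 in neurons, 5.69 to 6.93 in glia) and Pfkfb3 (2.17 in granule neurons to 10.28 in Drd1+ neurons, 6.05 to 9.27 in glia) passed in no comparison of classes.

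Aldolase splits fructose bisphosphate, and of its brain isozymes Aldoa was higher in neurons than in glia, while Aldoc was lower in neurons than in astroglia. Aldoa ran from 13.31 to 15.74 in neurons (median 14.50) and from 12.35 to 14.43 in glia (median 13.38), and 12 of 17 neuronal populations lay above all glia. The difference was 2.31-fold (1.21, SE 0.29, adjusted p = 0.00287). Against astroglia alone the Aldoa difference was 0.78 and did not pass (adjusted p = 0.151).

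Aldoc, long used as a marker of astrocytes and of bands of Purkinje neurons, stood at 15.11 in cerebellar astrocytes, 15.17 in Bergmann glia and 15.44 in cortical astrocytes. Oligodendroglia lay between 12.17 and 13.77, and neurons ran from 10.09 (cholinergic, basal forebrain) to 15.42 (Purkinje). Of the 17 neuronal populations 15 lay below all astroglia, the exceptions being Purkinje and layer 5a neurons (15.22). Neurons were 6.08-fold lower than astroglia (-2.60, SE 0.88, adjusted p = 0.0322), a call that ended without cerebellar astrocytes (-2.67, adjusted p = 0.106), cortical astrocytes (-2.50, 0.119) or Bergmann glia (-2.64, 0.101).

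Of the enzymes between aldolase and pyruvate, Eno2 set neurons apart most. Eno2, neuron-specific enolase, ran from 11.16 (Golgi) to 14.71 (layer 5a) in neurons, with a median of 12.78. It stood at 8.41 and 8.52 in cerebellar and cortical astrocytes and 9.82 in Bergmann glia, at 8.73 and 9.92 in mixed oligodendroglia, and at 11.97 and 11.85 in mature oligodendrocytes, of cerebellum and cortex. All neuronal populations lay above all astroglia, while mature oligodendrocytes overlapped the lower end of the neurons. The means of 12.99 ± 1.11 (n = 17) and 9.89 ± 1.51 (n = 7) differed 8.60-fold (3.10, SE 0.51, adjusted p = 0.000105), and the difference from astroglia was 16.9-fold (adjusted p = 0.000104). Summed neuronal markers stood at 15.3 and 14.9 in mature oligodendrocytes of cerebellum and cortex and at 14.1 and 14.0 in mixed oligodendroglia. They stood at 12.6 to 14.8 in astroglia and at 15.2 to 17.4 in neurons. The part of neuronal RNA in the Eno2 values of glia was not tested.

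Pgam1, phosphoglycerate mutase, gave a smaller but tight difference. It ran from 12.93 (Pnoc+) to 15.00 (layer 5a) in neurons and from 12.10 to 13.44 in glia, and all neurons lay above all 4 oligodendroglial populations. Its means of 13.97 ± 0.57 and 12.58 ± 0.42 differed 2.62-fold (1.39, SE 0.24, adjusted p = 0.000187). Pkm, pyruvate kinase, which makes pyruvate, ran from 10.77 to 14.79 in neurons against a narrow 10.69 to 11.45 in glia, a 2.82-fold difference of means (1.50, SE 0.40, adjusted p = 0.00697) with 15 of 17 neuronal populations above all glia. The array value does not separate the spliced forms of Pkm.

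Gapdh and Pgk1 had the smallest of the 10 higher differences. Gapdh ran from 13.54 to 15.57 in neurons and from 13.35 to 14.72 in glia, a 1.63-fold difference (adjusted p = 0.0239) that did not pass without mixed oligodendroglia of cerebellum (0.59, adjusted p = 0.0724) or of cortex (0.63, 0.0617). Pgk1, phosphoglycerate kinase, spanned only 13.44 to 14.17 in neurons and 12.78 to 13.86 in glia, and its 1.36-fold difference (adjusted p = 0.0431) was lost without any of 12 populations (adjusted p of 0.0516 to 0.115). These were each glial population except cortical astrocytes, the layer 5a, layer 5b, layer 6 and Drd1+ neurons, the motor neurons and the basal forebrain cholinergic neurons. Tpi1, triose phosphate isomerase, did not pass between neurons and glia (0.72, adjusted p = 0.122). Astroglia (14.84 to 15.15) lay within its neuronal range of 12.71 to 15.84, and oligodendroglia (12.91 to 13.65) lay near the lower end. Neurons were 2.79-fold above oligodendroglia for Tpi1 (adjusted p = 0.00569), with 16 of 17 neuronal populations above all 4.

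**Figure D3:**
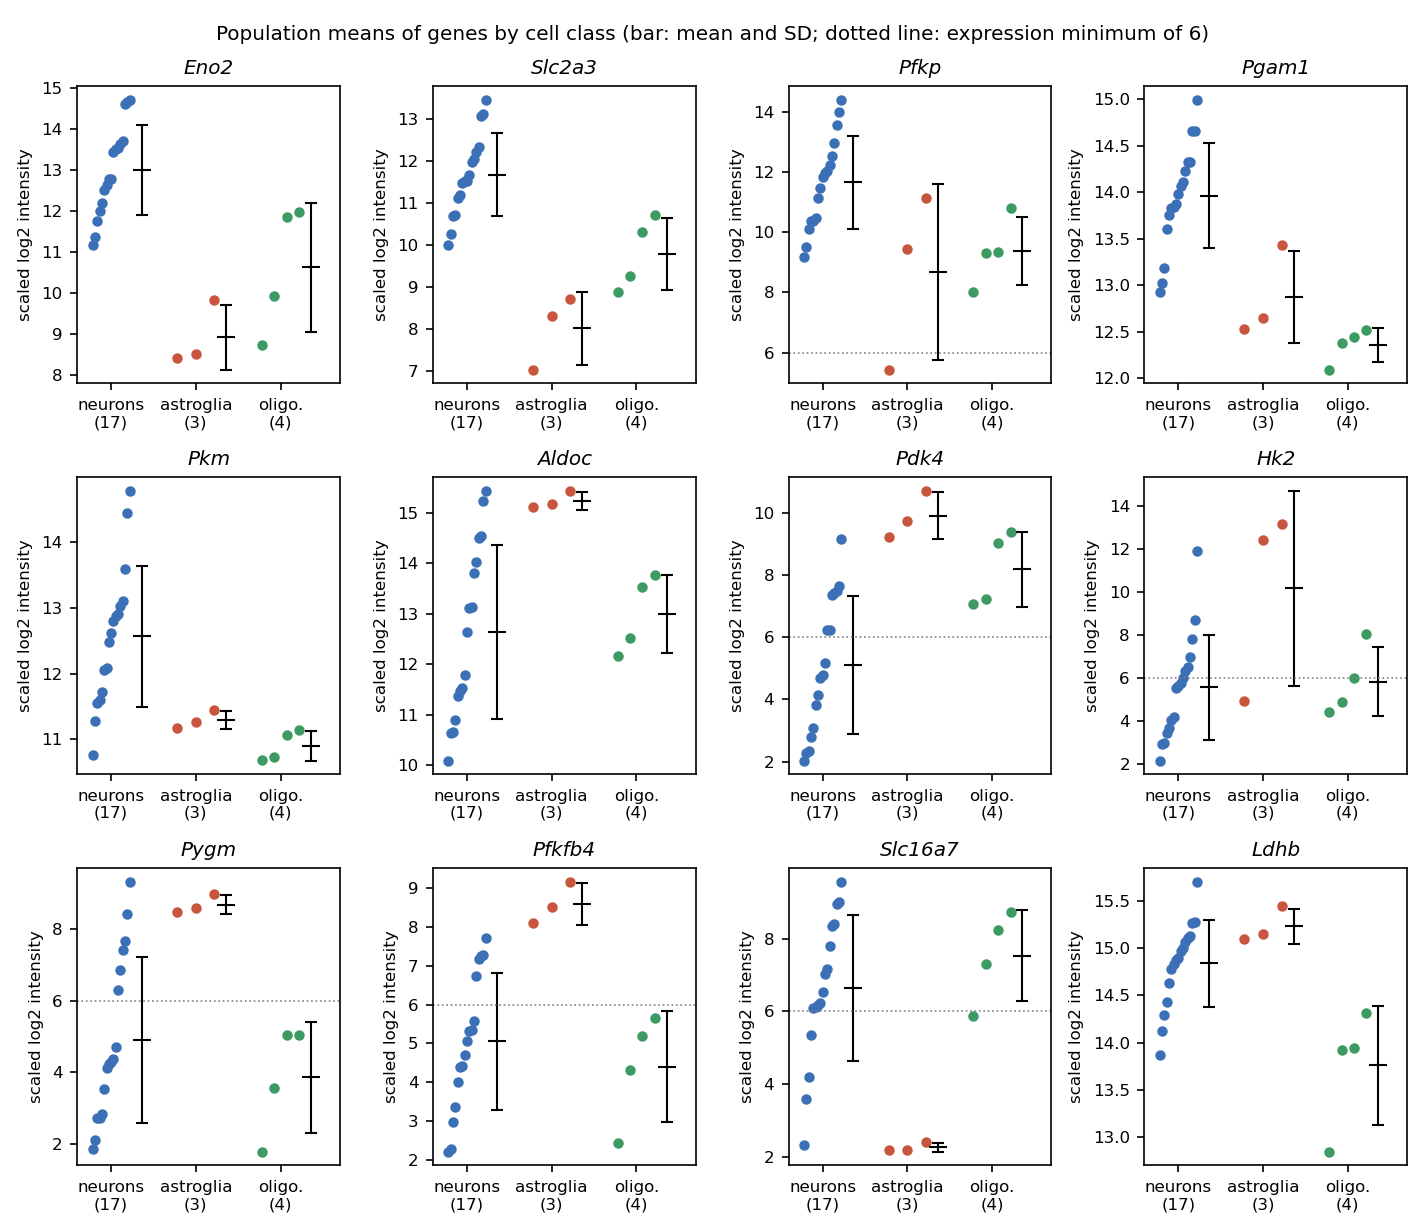
Population means of 12 members (points, scaled log2 intensity) in neurons (17), astroglia (3) and oligodendroglia (4), with the class mean and SD (bars); the dotted line at 6 is the expression minimum. Slc16a7 lies between 2.19 and 2.39 in astroglia, and Pfkfb4 lies above all neurons there.

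Lactate dehydrogenase interconverts pyruvate and lactate, with Ldha the muscle-type and Ldhb the heart-type subunit. Ldha stood at 12.20 to 12.41 in astroglia and 9.68 to 10.55 in oligodendroglia, while neurons ran from 8.23 (Purkinje) to 14.42 (layer 5a), and no comparison of classes passed. Ldhb stood at 15.10 to 15.44 in astroglia, 12.85 to 14.31 in oligodendroglia and 13.87 to 15.70 in neurons. Oligodendroglia were 2.11-fold below neurons (1.08, SE 0.27, adjusted p = 0.00788) and 2.77-fold below astroglia (1.47, adjusted p = 0.0148). The former did not pass without mixed cerebellar oligodendroglia (0.78, adjusted p = 0.102), and the latter without them (1.17, 0.0698) or without either astrocyte population (1.51, 0.0606 and 1.36, 0.0735).

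Of the monocarboxylate transporters, Slc16a7 was higher in neurons and in oligodendroglia than in astroglia. Slc16a7, the high-affinity carrier MCT2 by which neurons take up lactate, stood at 2.19 in cerebellar astrocytes, 2.20 in cortical astrocytes and 2.39 in Bergmann glia, all near background. In oligodendroglia it was 8.74 and 8.23 (mixed, cerebellum and cortex), 7.32 and 5.88 (mature, cortex and cerebellum), and in neurons it ran from 2.31 (Purkinje) to 9.58 (layer 5a) with a median of 6.55. Of 17 neuronal populations 16 lay above all astroglia, and Purkinje neurons were as low as the astroglia. With astroglia set to 6, neurons were at least 1.56-fold above them and oligodendroglia at least 2.91-fold. These bounds were not tested. The tests used the unfloored values, with astroglia near background. They gave a difference of 4.38 for neurons (SE 1.09, adjusted p = 0.00462) and an adjusted p of 0.0166 for oligodendroglia. The latter did not pass without cerebellar astrocytes (-5.25, adjusted p = 0.0767), cortical astrocytes (-5.25, 0.0555) or mixed cerebellar oligodendroglia (-4.88, 0.0562).

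Slc16a1, the carrier MCT1 of glia and endothelium, ran from 9.92 to 11.22 in glia and from 6.60 to 11.57 in neurons. The difference of -1.50 missed the threshold (SE 0.58, adjusted p = 0.0579), and 12 of 17 neuronal populations lay below all glia. The 2 neuronal populations above all glia were layer 5a and layer 5b, both at 11.57. They also had the highest vascular marker sums among neurons (12.3 and 11.1), but different genes made up these sums. Rgs5 stood at 11.99 in layer 5a and 8.55 in layer 5b. Cldn5 stood at 5.38 and 9.44, and Slco1a4 at 4.36 and 8.76. The part of vascular RNA in these Slc16a1 values was not tested.

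Pyruvate dehydrogenase turns pyruvate into acetyl-CoA and is switched off by the PDK kinases. Pdhb, its E1 beta subunit, stood at 11.82 to 13.59 in neurons and 11.88 to 12.44 in glia, with 15 of 17 neuronal populations above all glia and a 1.71-fold difference (0.78, SE 0.22, adjusted p = 0.0104). Pdha1, the E1 alpha subunit, did not pass (0.73, SE 0.35, adjusted p = 0.123), and only 1 of its 2 probe sets had this sign.

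Pdk4 was lower in neurons than in glia. It stood at 10.73 in cortical astrocytes, 9.76 in Bergmann glia and 9.24 in cerebellar astrocytes, at 9.38 and 9.05 in mature and 7.08 and 7.23 in mixed oligodendroglia of cerebellum and cortex. Neurons ran from 2.03 (Cck+) to 9.17 (layer 5a) with a median of 4.77, and 10 of 17 lay under 6. All neurons lay below all astroglia, and 12 of 17 lay below all glia. With neuronal values under 6 set to 6, glia were at least 5.15-fold above neurons and astroglia at least 10.2-fold. The tests used the unfloored differences (-3.83, SE 0.86, adjusted p = 0.00198 for glia, and adjusted p = 0.00445 for astroglia).

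The other kinases of the complex did not separate neurons from glia. Pdk1 ran from 5.50 to 10.22 in neurons and 6.28 to 9.37 in glia, with 1 of its 3 probe sets above the minimum carrying the sign of the difference. Pdk2 was highest in granule neurons (10.05) and at 8.32 to 9.48 in astroglia. Pdk3 stood at 7.54 to 8.31 in astroglia and 9.24 to 10.29 in oligodendroglia, which did not overlap, but the difference of -1.87 did not pass (adjusted p = 0.0979). Pcx, pyruvate carboxylase, the astroglial route for refilling the citrate cycle, stood at 8.64 to 9.90 in astroglia and 5.33 to 10.20 in neurons, with 12 of 17 neuronal populations below all astroglia and no call (-1.53, adjusted p = 0.137).

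Of the 5 members that serve glycogen, Pygm and Ugp2 were higher in astroglia than in neurons. Pygm, the muscle-type glycogen phosphorylase found in astrocytes, stood at 8.98 in cerebellar astrocytes, 8.58 in Bergmann glia and 8.49 in cortical astrocytes. It ran from 1.78 to 5.04 in oligodendroglia, under the minimum in all 4, and from 1.85 to 9.33 in neurons, where 11 of 17 populations lay under 6. Only layer 5a (9.33) exceeded all astroglia, and unipolar brush neurons (8.43), the other population rich in astroglial markers, came next. With neuronal values under 6 set to 6, astroglia were at least 4.28-fold above neurons. The test used the unfloored difference (-3.78, SE 1.25, adjusted p = 0.0298). This call was lost without cerebellar astrocytes (-3.63, adjusted p = 0.126), cortical astrocytes (-3.88, 0.0902) or Bergmann glia (-3.83, 0.0961).

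Ugp2 stood at 14.47, 14.06 and 13.34 in cortical astrocytes, Bergmann glia and cerebellar astrocytes, above all 17 neuronal populations (9.91 to 13.17). Neurons were 4.18-fold below astroglia (-2.06, SE 0.51, adjusted p = 0.00441). The wider difference of -1.11 from all glia (adjusted p = 0.0459) was kept when any of only 10 of the 24 populations was left out: both mature oligodendrocyte populations and the motor, basal forebrain and striatal cholinergic, layer 5a, Golgi, unipolar brush, stellate and basket, and Purkinje neurons. Without any of the other 14 it ran from -1.14 to -0.87 (adjusted p of 0.0538 to 0.140). Pygb, the brain-type phosphorylase (11.04 to 12.49 in astroglia, 7.79 to 8.51 in oligodendroglia, 6.82 to 12.67 in neurons), and Gys1, glycogen synthase (6.93 to 8.67, 4.40 to 6.21 and 2.85 to 8.82), separated astroglia from oligodendroglia without overlap but passed in no comparison. Gbe1, the branching enzyme, was highest in striatal cholinergic neurons (9.24) and under 6 in all glia.

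By class, 5 members were higher and 6 lower in neurons than in astroglia, where 11.1% and 11.7% of all genes were. The 5 higher were Slc16a7, Eno2, Slc2a3, Pfkp and Pgam1, and the 6 lower were Pdk4, Hk2, Pygm, Pfkfb4, Aldoc and Ugp2. Neurons and astroglia did not overlap for 5 members (Eno2, Slc2a3, Ugp2, Pfkfb4 and Pdk4), against 10.4% of all genes. Pgam1 did not pass without cerebellar astrocytes (0.92, adjusted p = 0.145) or Bergmann glia (0.98, 0.111), and without layer 5a and layer 5b together 10 members were lower. Without the control shift the share of all calls that were higher fell from 48.7% to 37.8%.

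Against oligodendroglia 11 members were higher in neurons and none was lower, where 4.70% and 6.74% of all genes were. The 11 were Eno2, Pfkm, Slc2a3, Pkm, Pgam1, Aldoa, Tpi1, Ldhb, Gapdh, Pdhb and Pgk1, with differences from 0.62 (Pgk1) to 2.38 (Eno2). Pgam1 and Pgk1 did not overlap between the classes, as did not 3.11% of all genes. The count fell to 3 without mixed cerebellar oligodendroglia (Aldoa, Pgam1 and Tpi1), to 4 without mixed cortical oligodendroglia (the same 3 and Ldhb), to 7 without mature cerebellar oligodendrocytes (Pdhb, Pfkm, Pgk1 and Pkm lost) and to 3 without the control shift, where the share of all calls that were higher fell from 41.1% to 19.7%.

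Astroglia and oligodendroglia differed in 4 members: Pfkfb4, Tpi1 and Ldhb were higher in astroglia, where 2.21% of all genes were, and Slc16a7 was higher in oligodendroglia, where 3.20% were. The difference was 1.77 for Tpi1 (SE 0.48, adjusted p = 0.0258). The 2 classes did not overlap for 17 of 34 members, against 26.5% of all genes. Tpi1 and Pfkfb4 each ended without any of 6 glial populations (adjusted p of 0.0536 to 0.118 and 0.0531 to 0.147). For Tpi1 the exception was mature cortical oligodendrocytes, and for Pfkfb4 it was mature cerebellar oligodendrocytes.

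The comparison was repeated with tissue held constant. Among 18 populations of cortex and cerebellum with tissue as a term, 8 members were higher and 1 lower in neurons, where 10.6% and 10.4% of 12100 genes were. Eno2 (2.75, adjusted p = 0.00224), Slc2a3 (2.62, 0.00177), Pfkp (2.27, 0.0128), Pgam1 (1.28, 0.00212) and Pdk4 (-3.81, 0.00894) passed whichever population was left out. Aldoa (1.06, adjusted p = 0.0204) and Pkm (1.50, 0.0206) did not pass without mixed cortical oligodendroglia (0.87, 0.0683 and 1.36, 0.0571). Hk1 (1.65, 0.0413) passed when mature cerebellar oligodendrocytes or Golgi, Purkinje or Pnoc+ neurons were left out and not for the other 14 (adjusted p of 0.0524 to 0.119). Gapdh (0.70, 0.0491) passed when cortical astrocytes, Cck+ or Pnoc+ neurons were left out and not for the other 15 (adjusted p of 0.0531 to 0.128). A dependence of the neuron-minus-glia difference on tissue was not detected for any member (interaction of class and tissue, limma: 0 of 34 called and 0 with an unadjusted p under 0.05). Of 12100 genes 0 were called, and 716 had an unadjusted p under 0.05. The lowest member p was 0.0623, for Ldha, whose difference was 1.46 in cortex and -1.13 in cerebellum. That of Hk2 was 1.05 and -2.49, while that of Eno2 was 3.18 and 2.37. With few populations per class and tissue, the test can miss such differences.

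Pairs of related genes were compared within arrays, where scaling between groups cancels. The log2 difference of Slc2a3 and Slc2a1 was 1.27 ± 1.02 (SD, n = 17) in neurons and -2.73 ± 1.50 (n = 7) in glia, and 17 of 17 neuronal populations lay above every glial population. This shift of 4.01 had an exact permutation p of 2.89e-06 over 346104 assignments of populations, the smallest they can give (two-sided, adjusted p = 2.31e-05 over 8 pairs). The permutation treats populations as independent, although some share a driver, so its p-values may be too small. Since probe sets differ in sensitivity, the shift between classes is the measurement and the sign of a single value carries no ratio of molecules.

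The pair of Aldoa and Aldoc shifted by 2.53 toward Aldoa in neurons (1.90 ± 1.65 against -0.62 ± 1.05, exact permutation p = 0.00141, adjusted p = 0.00563), with 12 of 17 neuronal populations above every glial one. For Hk1 and Hk2, Hk2 lay under 6 in 10 neuronal and 4 glial populations. With values under 6 set to 6, the pair shifted by 3.10 toward Hk1 in neurons (adjusted exact permutation p = 0.0216), and without that floor by 3.72 (adjusted exact permutation p = 0.0169). The latter did not pass without Bergmann glia (2.79, adjusted p = 0.0882) or cerebellar astrocytes (2.82, 0.0648), the 2 astroglial populations with high Hk2. Pfkp and Pfkl shifted by 1.41 toward Pfkp (adjusted exact permutation p = 0.0167), and this did not pass without Bergmann glia (0.78, adjusted p = 0.0923).

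Slc16a7 lay under 6 in 4 neuronal and 4 glial populations, so values under 6 were set to 6 for its pair with Slc16a1. The pair then shifted by 1.75 toward Slc16a7 in neurons (-1.95 ± 1.43 against -3.70 ± 1.52, adjusted exact permutation p = 0.0238), with astroglia at -4.88 ± 0.31 (n = 3) and oligodendroglia at -2.81 ± 1.46 (n = 4). Without that floor, the shift was 2.86 (adjusted exact permutation p = 0.0267), and this call ended without any astroglial population (2.24 to 2.35, adjusted p of 0.0837 to 0.0932). Within cortex and cerebellum alone, permuting within tissue, the GLUT pair was the only called pair that still passed, and the other 4 had adjusted exact permutation p of 0.0601 to 0.0649 with shifts of 0.99 to 2.60. The pairs Pygb and Pygm (0.99, adjusted p = 0.339, and 0.54 with values under 6 set to 6), Pfkm and Pfkl (-0.24, 0.593) and Ldhb and Ldha (0.01, 0.982) did not pass the exact permutation test. For Ldhb and Ldha neurons alone ran from 1.29 in layer 5a to 6.90 in Purkinje neurons, wider than the glial range of 2.69 to 4.25.

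**Figure D4:**
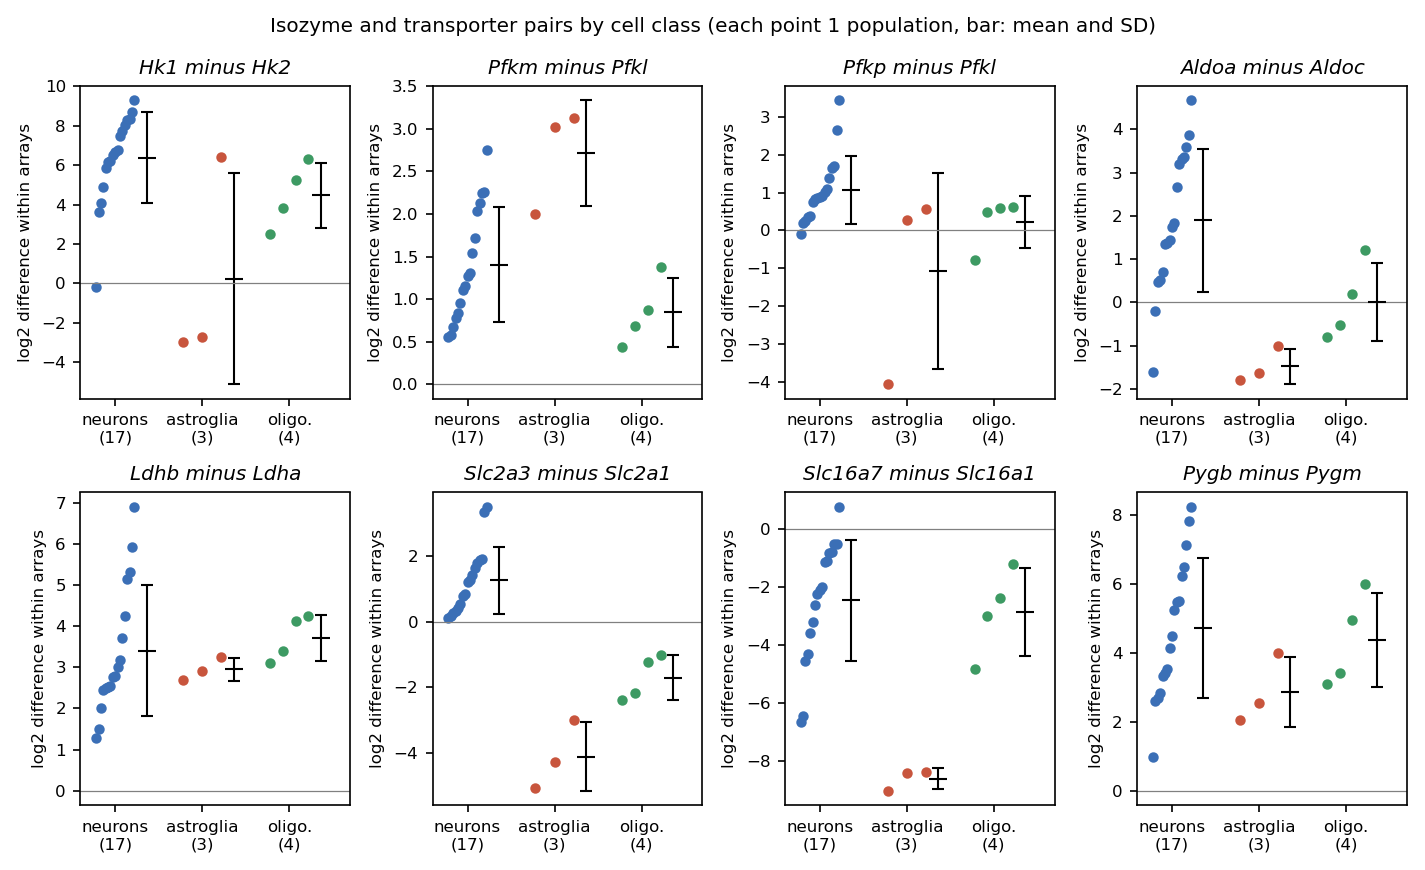
Within-array log2 difference of 8 pairs of related genes in each population (points), by class, with the class mean and SD (bars). For Slc2a3 minus Slc2a1, the lowest neuronal population is at 0.13 and the highest glial one at -1.02.

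Among neurons, the median member varied about as widely as the median gene, but single members differed. The range over the 17 neuronal populations had a median of 4.80 for members and 4.53 for all genes. The ranges of Pgk1, Pdhb, Ldhb, Gapdh and Pgam1 each exceeded those of at most 4.70% of genes. Those of Pfkfb3 and Hk2 exceeded those of 91.2% and 97.0%. In the F-test with a range of at least 2-fold, 33 of 34 members passed, where 99.9% of genes did. Layer 5a neurons were the highest of the 17 for 24 of 34 members, and for 27.7% of the 11942 genes that reached 6 in a neuronal population. The median over all genes was also highest there, at 7.51, against 6.67 in layer 5b and 6.48 in layer 6 neurons, and the 3′ minus 5′ difference of the Gapdh probe sets, a sign of RNA length, was lowest in layer 5a (1.13) and layer 5b (1.57) among neurons, whose median was 2.52. Below layer 5a, layer 5b and layer 6 neurons came next for Pfkl (14.16, 13.25 and 12.66 in the 3 layers) and Pfkm (14.74, 14.20 and 13.50). Golgi and Pnoc+ neurons were the lowest for 9 members each, where 15.2% and 22.1% of all genes were, and Purkinje neurons for 5, where 9.47% were. These 3 populations also had the lowest medians over all genes, at 3.92, 4.45 and 4.13, and Pnoc+ neurons had a 3′ minus 5′ Gapdh difference of 3.57. The part of overall signal and RNA quality in these ranks was not tested. The Purkinje lows were Hk1 (9.05), Pfkm (10.27), Ldha (8.23), Slc2a3 (9.99) and Slc16a7 (2.31), while Purkinje neurons were the highest neurons for Aldoc (15.42) and Pdhb (13.59).

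Granule neurons were the highest neurons for Tpi1 (15.84) and Pdk2 (10.05) and the lowest for Ldhb (13.87) and Pfkfb3 (2.17). Striatal medium spiny neurons were high for Pfkfb3, at 10.28 (Drd1+) and 9.54 (Drd2+), and low for Slc2a1, at 8.80 and 8.68. Among glia, 31 of 33 members tested passed the F-test, where 92.8% of genes did, with a median range of 2.87 for members and 2.38 for all genes. The widest glial ranges were those of Hk2 (8.75), Pygm (7.20), Pfkfb4 (6.75), Slc16a7 (6.54) and Pfkp (5.70).

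The unbound RNA of the same tissue served as the control for each TRAP population. Over 24 such comparisons, 758 member tests gave 153 calls higher in TRAP RNA and 230 lower (limma on arrays, adjusted p under 0.05 and at least 2-fold), where 18.4% and 32.4% of all tests were higher and lower. Comparisons within a tissue share their unbound arrays, which in cortex, cerebellum and striatum come from several lines. Some populations, among them Golgi and granule neurons, had no unbound array of their own line. Quantile normalization gave 131 lower calls and moved the share of all calls that were higher from 36.2% to 51.6%. Neurons had 112 higher and 140 lower of 538 member tests, near the 17.6% and 30.1% of all genes. Astroglia had 30 and 25 of 98, where 22.9% and 39.9% of all genes were, and oligodendroglia had 11 and 65 of 122, where 18.4% and 36.6% were.

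The deep cortical layers had the most higher calls among neurons. In layer 5a neurons 32 of 34 members were higher than in unbound cortex, where 60.7% of all genes were, in layer 5b neurons 25 of 34 (36.7% of all genes) and in layer 6 neurons 18 of 32 (30.8%). None of the members was lower in these 3 populations, where only 2.31%, 4.92% and 4.53% of all genes were. At the other end, 24 of 32 members were lower in Golgi neurons and 18 of 28 in Pnoc+ neurons, near the 70.4% and 58.2% of all genes there. Among oligodendroglia, 25 of 32 members were lower in mature and 23 of 32 in mixed cells of cerebellum, where 53.3% and 39.1% of all genes were. In cortex 5 of 29 were lower in mature and 12 of 29 in mixed cells, where 32.8% and 20.6% were, so the mature cells had a lower share than their background there.

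By gene, the calls against unbound RNA are given as counts of populations. Over all genes, 22.9% of astroglial, 18.4% of oligodendroglial and 17.6% of neuronal tests were higher, and 39.9%, 36.6% and 30.1% were lower. How many of all genes were called in every population of a class was not counted, so the counts below lack that background. Pdk4 was higher than unbound RNA in 3 of 3 astroglial and 2 of 4 oligodendroglial populations (lower in 1). It was lower in 12 of 17 neuronal ones (higher in 1). Pygb, Pygm, Pfkfb4 and Ugp2 were higher in 3 of 3 astroglial populations, and Slc2a3, Eno2, Slc16a7 and Pfkfb2 were lower in 3 of 3. Eno2, Ldha and Pfkfb2 were lower in 4 of 4 oligodendroglial populations, whereas Pdk3 was higher in 4 of 4. Eno2 was higher than unbound RNA in only 3 of 17 neuronal populations and lower in 4, and Slc2a3 was likewise higher in 3 and lower in 4. Slc16a1 was lower in 11 of 17 and higher in 3.

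**Figure D5:**
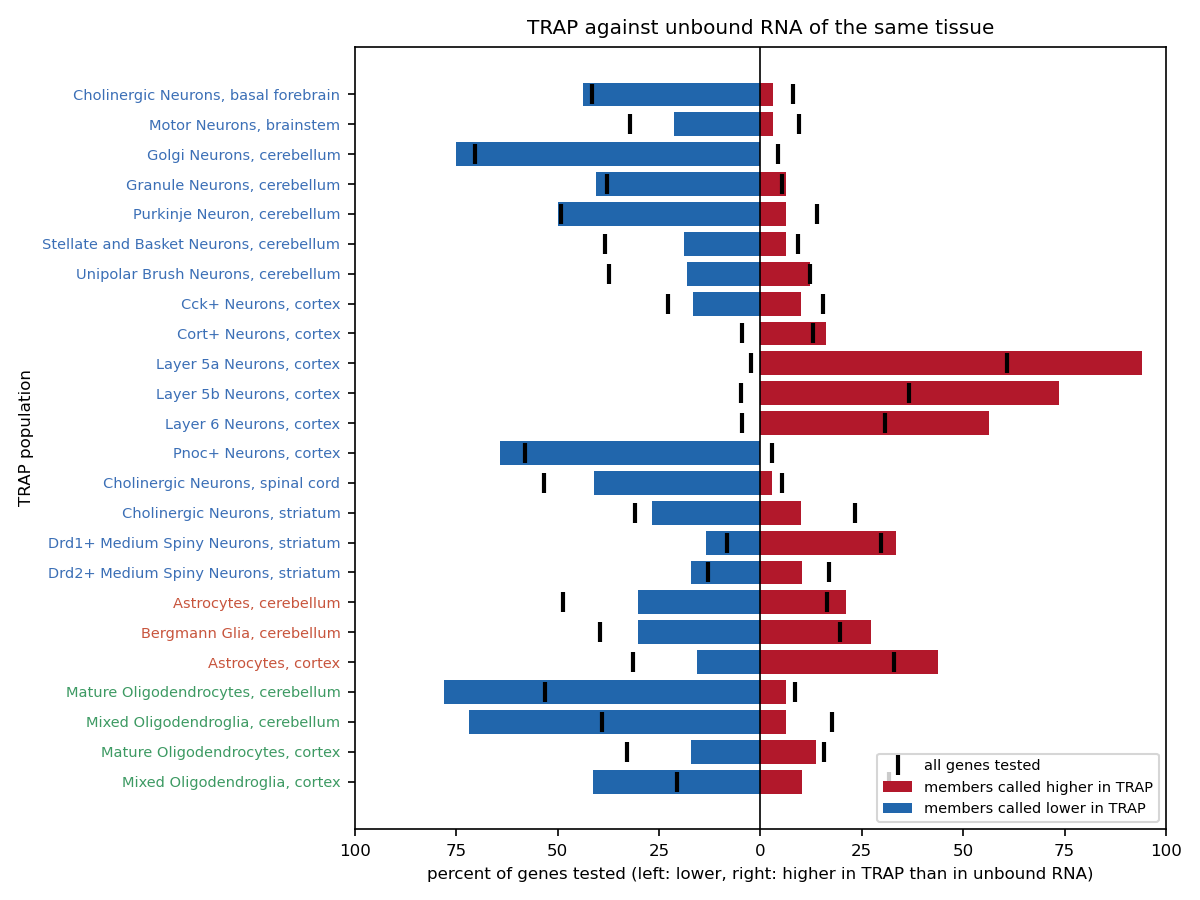
Percent of members called higher (right, red) or lower (left, blue) in TRAP RNA than in unbound RNA of the same tissue, for each population, with the percent of all genes (black marks). Layer 5a, layer 5b and layer 6 neurons have the longest bars to the right.

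Unbound RNA, which approximates whole tissue, differed less between regions for members than for other genes. Over 6 tissues the median range was 1.26 for members and 1.81 for all genes, and 22 of 34 members passed the F-test with a 2-fold range, where 86.6% of genes did. Hk2 had the widest range, from 3.16 ± 0.29 (SD, n = 6) in striatum to 9.95 ± 0.46 (n = 7) in cerebellum. Astroglia and unipolar brush neurons of cerebellum both held Hk2, and no glia of striatum were sampled. The cells behind this range were not tested. Pygm ran from 4.37 ± 0.66 (n = 9) in cortex to 7.85 ± 0.44 (n = 3) in spinal cord, Pdk4 from 7.04 ± 0.48 to 9.63 ± 0.54 and Slc16a1 from 9.45 ± 0.78 to 11.70 ± 0.18 between the same tissues. Eno2 (range 0.57, adjusted p = 0.497), Pfkp (0.43, 0.193) and Pgk1 (0.38, 0.165) did not pass between tissues.

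Genes around the pathway were taken from 8 lists of 88 genes, of which 67 could be tested. In neurons 15 were higher and 10 lower than in glia, with a median difference of -0.03, where 12.4% and 12% of all genes tested were higher and lower and their median was 0.09. The lists for carriers and for NADH shuttles had the most members higher. Of 11 NADH shuttle genes, which move reducing power into mitochondria, 6 were higher and 2 lower in neurons: the aspartate aminotransferases Got1 (3.48, SE 0.55, adjusted p = 6.79e-05) and Got2 (2.15, SE 0.39, adjusted p = 0.000229) were higher. The 2 lower genes were Gpd1, the cytosolic glycerol phosphate dehydrogenase (-3.08, SE 1.06, adjusted p = 0.0345), and Slc25a13, an aspartate and glutamate carrier of mitochondria (-2.15, adjusted p = 0.0115, with both class means under 6). Only oligodendroglia lay above neurons for Slc25a13, with means of 6.43 in oligodendroglia, 1.97 in astroglia and 2.37 in neurons. Of 9 other transporters 4 were higher, among them Slc2a13, a proton myo-inositol carrier (3.45), Emb, a chaperone of monocarboxylate carriers (3.27), and Slc2a6 (2.82), the latter pair with glial means of 4.19 and 4.11, near background, and 1 was lower, Slc2a12 (-1.78, with a neuronal mean of 2.75, near background).

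Pyruvate entry had 2 of 7 higher and none lower: Pdp1, the phosphatase that turns pyruvate dehydrogenase back on (2.92, adjusted p = 0.00159), and Dlat, its E2 subunit (2.09, adjusted p = 5.00e-06). The pentose phosphate list had none of 6 higher and 3 lower: Taldo1, transaldolase (-1.77, adjusted p = 0.000808), Pgls (-1.33) and Rpe (-1.18). Of 16 glycogen genes 2 were higher and 2 lower, the largest being Pgm2l1 (2.21), Phka1, a phosphorylase kinase subunit (-2.01, with both class means under 6), and Gaa, the lysosomal glucosidase (1.65). Phka1 had means of 7.10 in astroglia, 5.10 in oligodendroglia and 3.95 in neurons. Of 7 regulators Tigar, which lowers fructose 2,6-bisphosphate, was higher (2.03, adjusted p = 9.55e-05) and Vhl was lower (-1.69). Bpgm, which makes 2,3-bisphosphoglycerate, was the only rare isozyme called of 7 (-1.89), and none of 4 gluconeogenesis genes was called.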

How the data were processed

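Translating RNA (76 TRAP arrays) and unbound RNA (31 arrays) were amplified in 2 cycles from 15 ng, per the labels' protocols, and hybridised to expression arrays. The deposited values are linear intensities, GCRMA-normalized by the authors within each replicate group, per the submitters' processing notes. Intensities were floored at 1, taken to log2 and shifted per group to equal means of the 18 biotinylated controls. Of 45101 probe sets, 34958 named 1 gene, 932 several and 9211 none. Replicates were averaged before populations were compared with limma 3.58.1 (R 4.3.3, eBayes with trend, Benjamini-Hochberg over all genes tested), and a call is an adjusted p under 0.05. Populations that share a driver (chat, aldh1l1, cmtm5 or olig2) counted as separate units, so p-values of class comparisons may be too small. Populations of a shared driver were not left out together. Tests on single arrays also required a 2-fold difference, and their p-values measure the spread between arrays of a group. The unbound groups of cortex, cerebellum and striatum pool arrays of several lines, so differences between lines are part of that spread. Same-numbered TRAP and unbound arrays pair in brainstem motor neurons (correlation of deviations 0.440 to 0.557, 3 pairs) and basal forebrain cholinergic neurons (0.277 to 0.429, 3 pairs), and the replicate block changed no member call there. The scripts were tested on simulated data. All 36 members may be named, and wider lists are given by counts and by genes with the largest called differences. The members and lists were chosen with earlier results of these data known. The driver gene of the layer 5a line is not reported here. Alternatives in scaling, minimum, probe sets, test and samples are given in the closing section.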

Additional observations from a re-analysis of the deposited data

Results flagged for a closer look

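In groups of 4 to 10 arrays, 154 combinations of member and group were examined for a single array far from the others (Dixon's criterion), and 13 were found (8.44%), in 5 groups. Chance flags about 1 in 20 groups.

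Purkinje replicate 4 was low for Pkm (11.64, others 12.07 to 12.30) and Pdha1 (11.46, others 11.77 to 11.88), and Purkinje replicate 1 was high for Pdk1 (8.31, others 7.32 to 7.60) and Pcx (7.91, others 7.30 to 7.47). Among cortical astrocytes, replicate 2 was high for Hk1 (11.77, others 11.27 to 11.30), and replicate 4 was low for Pgk1 (13.69, others 13.89 to 13.92) and high for Ldha (12.66, others 11.98 to 12.08).

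Unbound arrays of cerebellum, cortex and striatum came from several lines and were numbered across them. In unbound cerebellum, replicate 1 was low for Hk2 (9.01, others 9.81 to 10.38) and high for Pdk1 (8.88, others 8.26 to 8.51). In unbound cortex, replicate 9 was high for Slc2a1 (11.77, others 9.17 to 10.30) and replicate 4 was high for Pdk3 (8.78, others 7.85 to 8.28). In unbound striatum, replicate 4 was low for Gapdh (14.20, others 14.88 to 15.11) and for Ldhb (14.43, others 15.12 to 15.33).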

How the results depend on the processing

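Of 47 member calls in the comparisons of classes, 16 held under every alternative run and 0 reversed. For neurons against glia, Aldoa, Eno2, Pdk4, Pgam1 and Slc2a3 held in all 37. The cause of the changes below was not tested, beyond the fewer populations of each leave-one-out. Members higher in neurons than in glia fell from 10 to 6 without further scaling and with population as a random block over arrays (7 to 11 leaving out 1 population or replicate). Members lower went from 2 to 4 without scaling, with quantile normalization, and without layer 5a and layer 5b or unipolar brush neurons, and to 1 with no minimum, the mean of all probe sets, eBayes without trend, and TRAP minus unbound values (1 to 4 leaving one out). Within tissue, 8 higher became 5 with the random block (4 to 12 leaving one out), and 1 lower became 3 with quantile normalization and 2 with the random block or without either pair (1 to 2). Against astroglia, 5 higher became 8 with quantile normalization (3 to 6), and 6 lower became 10 without layer 5a and layer 5b (2 to 8). Against oligodendroglia, 11 higher became 3 without scaling and 4 with the random block (3 to 11), and 0 lower became 1 without scaling, with quantile normalization, the random block or without either pair (0 to 1). Between glia, 3 higher in astroglia became 6 with quantile normalization or without layer 5a and 5b and 1 without trend (0 to 6), and 1 lower became 2 with quantile normalization (0 to 1). TRAP calls lower than unbound went from 230 to 131 with quantile normalization.

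With the mean of all probe sets, Pfkp/Pfkl shifted by 0.37 and Slc16a7/Slc16a1 by 2.00 (adjusted exact permutation p = 0.355 and 0.135). Within cortex and cerebellum, Hk1/Hk2 shifted by 2.40, Pfkp/Pfkl by 0.99, Aldoa/Aldoc by 1.81, Slc16a7/Slc16a1 by 2.60 and Pygb/Pygm by -0.24. Quantile normalization gave -0.14 for Ldhb/Ldha. Leaving out 1 population gave 2.79 to 4.35 for Hk1/Hk2, -0.44 to 0.0074 for Pfkm/Pfkl, 0.78 to 1.56 for Pfkp/Pfkl, -0.20 to 0.16 for Ldhb/Ldha and 2.24 to 3.55 for Slc16a7/Slc16a1. The replicate block, possible in 8 populations, gave 33 higher and 77 lower against 32 and 77 without it on the same paired arrays. In spinal cord, striatal, Purkinje and Bergmann populations, same-numbered arrays correlated from -0.247 to 0.162. With only 2 or 3 pairs in each population, these values do not settle whether the arrays pair. Setting values under 6 to 6 (chosen after seeing the data) kept every isozyme call.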
